A study of Mus musculus with 12 samples.

Results

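The genes described here encode membrane transporters of amino acids, sugars, monocarboxylates, nucleosides and nucleobases, measured in mouse glioma cells sorted from the brain. Members were all genes with a single symbol starting with Slc2a, Slc3a, Slc6a, Slc7a, Slc16a, Slc28a, Slc29a, Slc36a, Slc38a or Slc43a and a digit, without Slc7a11 and Slc38a1. The rule found 89 of the 19938 measured genes, of which 56 lay above background and 33 did not. Background was the log2 value of 4.10, below which 95% of 1027 olfactory receptor genes had their mean. At this limit Slc38a8 and Slc7a14 were just inside, at means of 4.19 and 4.18, and Slc2a7 and Slc36a2 just outside, at 4.10 and 4.09. By name, 3 of the 89 code for no transporter: Slc7a6os and Slc2a4rg-ps, both above background, and Slc6a19os.

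Both groups lack the tumor suppressor locus Ink4a/Arf and carry human EGFRvIII, a truncated receptor that signals without ligand and was introduced into progenitors of the subventricular zone. They are tumor lines of a shared parental pool, pEGFR-Hi with high and pEGFR-Lo with low EGFRvIII activity, that had been grown before as tumors in syngeneic mice. In both groups 2 µl at 200000 cells per µl were injected into the brain of FVB mice, and ZsGreen-tagged tumor cells were sorted by FACS from 6 mice per group, with 1 array per mouse. Each group is 1 tumor line, so the p-values measure spread among mice and not among lines. Brains were taken close to the median survival of each group, which was shorter for pEGFR-Hi, so tumor line and time since injection cannot be told apart. The sources used here do not give the age of the mice.

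Solute carriers of these families are the main way by which cells take up nutrients that do not cross the membrane by themselves. Heterodimers of the Slc3a2 heavy chain with Slc7 light chains exchange amino acids, and Slc38 and Slc36 proteins carry small neutral amino acids with sodium or protons. Slc6 proteins clear transmitters and osmolytes such as glycine, GABA and taurine with sodium, Slc2 proteins let sugars through, Slc16 proteins carry lactate and related acids, and Slc28 and Slc29 proteins carry nucleosides. Slc43a1 and Slc43a2 (LAT3 and LAT4) are facilitators of large neutral amino acids, and their relative Slc43a3 carries purine nucleobases. In the brain, astrocytes use Slc38a3 to release glutamine and Slc6a11 to take up GABA.

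Promoter sequences are shown for the amino acid carriers Slc43a1 and Slc43a2, which were called in opposite directions, and for Slc38a2, a known target of the amino acid response. Both strands were searched for 2 motifs, CACGTG, the E-box bound by Myc and related factors, and TGATGNAA, a core of the amino acid response element bound by Atf4. RefSeq (GRCm38.p6) gave 95 windows, from 250 bases before to 50 after a start, for 67 of the 89 genes, and 63 windows for 42 of the 56 above background. Printed are the 250 bases before the start, 5′ to 3′ on the gene's strand, with any motif in capitals. They lie at chr2:84840073-84840322 on the plus strand for Slc43a1, at chr11:75531444-75531693 on the plus strand for 1 of the starts of Slc43a2, and at chr15:96699729-96699978 on the minus strand for Slc38a2.
Slc43a1: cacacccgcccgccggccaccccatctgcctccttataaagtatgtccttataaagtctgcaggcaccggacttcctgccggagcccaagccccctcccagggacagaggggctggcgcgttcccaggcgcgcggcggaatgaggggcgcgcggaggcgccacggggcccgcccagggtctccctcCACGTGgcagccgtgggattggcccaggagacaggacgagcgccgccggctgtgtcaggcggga
Slc43a2: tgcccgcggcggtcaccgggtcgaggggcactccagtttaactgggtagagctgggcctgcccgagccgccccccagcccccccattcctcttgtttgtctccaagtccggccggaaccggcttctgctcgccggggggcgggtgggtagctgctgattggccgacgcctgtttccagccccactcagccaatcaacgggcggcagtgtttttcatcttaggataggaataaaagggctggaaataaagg
Slc38a2: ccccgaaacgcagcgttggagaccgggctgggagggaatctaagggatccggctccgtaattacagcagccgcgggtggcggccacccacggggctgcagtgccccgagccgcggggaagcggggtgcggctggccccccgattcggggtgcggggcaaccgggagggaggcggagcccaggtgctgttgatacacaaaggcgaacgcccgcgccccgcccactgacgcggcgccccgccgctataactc
The Slc43a1 window held CACGTG with its first base at position -64 from the start. It was the only 1 of the 11 windows of called genes (9.09%) that did. These windows covered 10 called genes, while the called genes Slc43a3, Slc38a3 and Slc6a6 had no window and were not searched. Among uncalled members above background, CACGTG stood in windows of Slc16a1, Slc29a1, Slc36a1, Slc38a7, Slc6a3 and Slc7a14. CACGTG stood in 7.15% of all 32851 promoter windows, in 10 of the 95 windows of members (10.5%) and in 7 of the 63 of members above background (11.1%). TGATGNAA stood in 3.97% of all windows, in 3 windows of members (3.16%), in 2 windows of members above background (3.17%) and in 0 windows of called genes. CACGTG reads the same on both strands, and neither motif contains the other. A match describes the letters in the window and is not a measured site. Motifs outside these windows, also those of Slc38a2, were not searched, so a window without a match does not show that the gene lacks the motif.

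All values below are log2 RMA values, on which a difference of 1 is 2-fold, and a gene was called at an adjusted p (limma, Benjamini-Hochberg over all genes) under 0.01 and at least 2-fold. Of the 56 members above background, 3 were called higher in pEGFR-Hi (5.36%) and 10 higher in pEGFR-Lo (17.9%), where over all genes above background the shares were 5.77% and 7.23%. Of all 89 members the shares were 3.37% and 11.2%, against 3.99% and 5.06% of all genes tested. The other 43 were not called, 9 of them with an adjusted p under 0.01 but less than 2-fold. The median difference of the 56 was -0.05, pEGFR-Hi minus pEGFR-Lo, beside 0.03 for all genes above background. The groups did not overlap in any of the 13 called members nor in 6 that were not called, together 33.9% of the 56, where 33.1% of all genes above background had groups without overlap. The mean of each member was above background in both groups except in Slc16a10, Slc7a7 and Slc7a14, none of which was called. Of the 33 members at or below background, 0 were called with limma and 0 with SAM, and their differences ran from -0.70 to 0.54. Unadjusted p-values were under 0.05 for 1 gene toward pEGFR-Hi and for 4 toward pEGFR-Lo. Among these, Slc2a12, a sugar transporter, had a limma adjusted p = 0.00148 and a difference of -0.70.

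**Figure D1:**
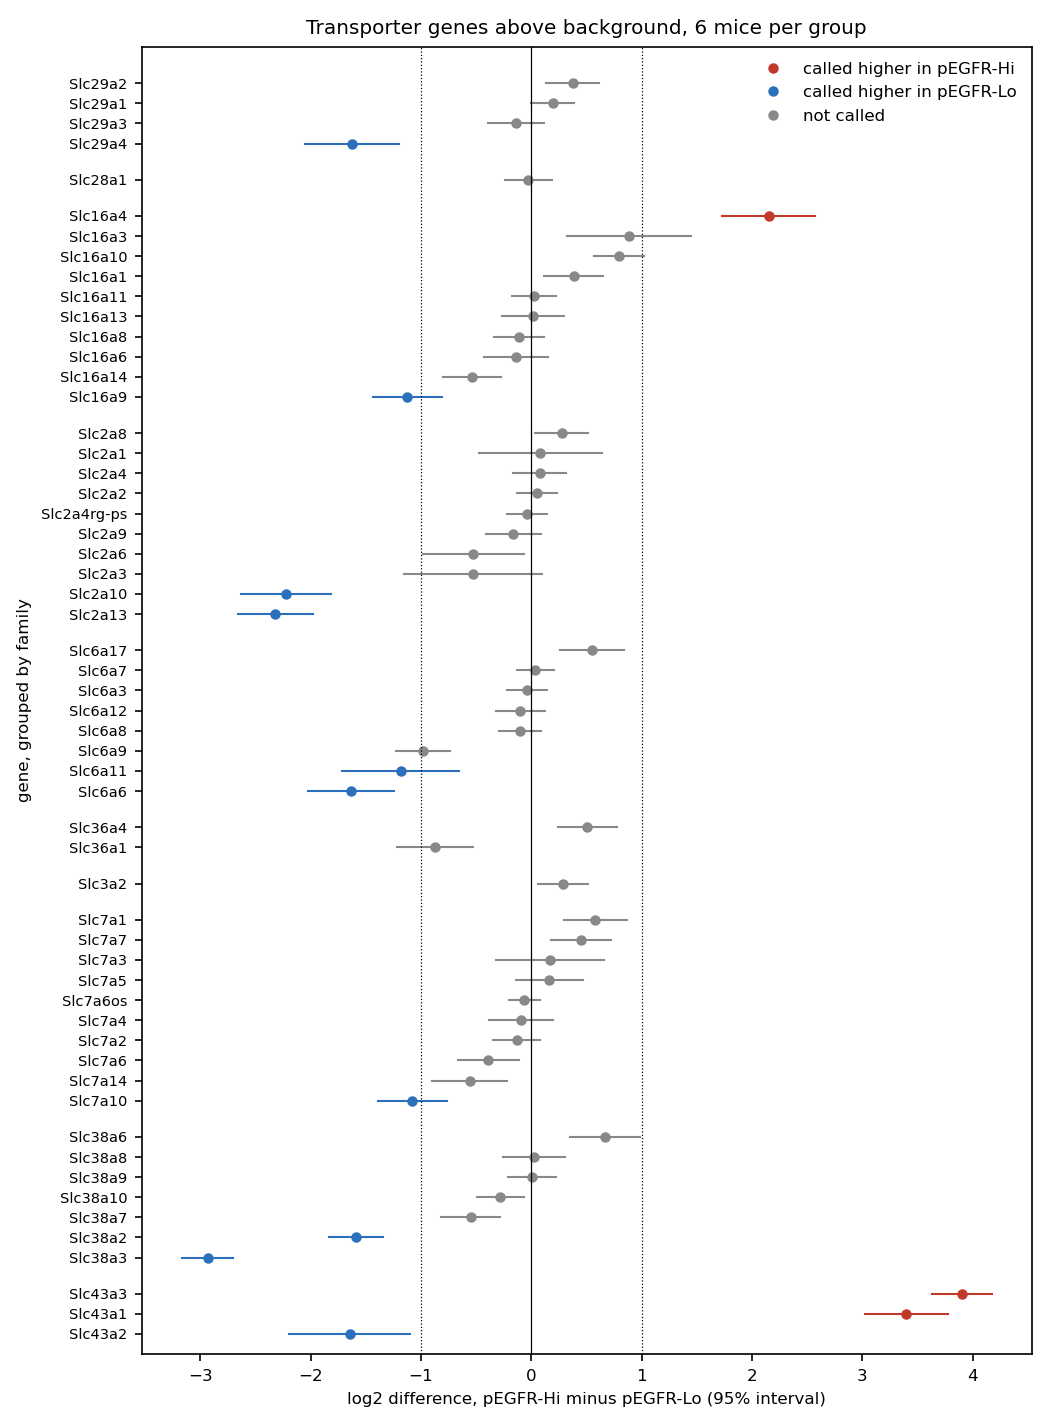
Log2 difference, pEGFR-Hi minus pEGFR-Lo (x axis), of the 56 transporter genes above background, grouped by family (y axis). Points are differences of means of 6 mice per group, bars are 95% intervals from limma and dotted lines mark 2-fold; Slc43a3 and Slc43a1 stand farthest to the right, at 3.90 and 3.40, and Slc38a3 farthest to the left, at -2.93.

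Arrays of the same group correlated at 0.985 to 0.994, and arrays of different groups at 0.944 to 0.959. In pEGFR-Lo replicates 3 and 6 the mean of 12 interferon-stimulated genes was 5.04 and 4.99, against 6.16 to 6.75 in the other pEGFR-Lo mice and 7.79 to 9.09 in pEGFR-Hi, and without these arrays 3 and 9 members were called. The progenitor genes Nes, Sox2, Olig2 and Vim had means between 8.73 and 11.64 in both groups and were not called. Of these, Sox2 was 1.42-fold higher in pEGFR-Hi without overlap of the groups (limma adjusted p = 4.50e-04). Of 15 endothelial markers, limma and SAM called 0 (unadjusted p under 0.05 for 3 toward pEGFR-Hi and 1 toward pEGFR-Lo), and 9 were not above background, among them Cdh5, Pecam1, Kdr and Tek. Of 15 mature neuron markers, 7 were above background, and Syn1 was called higher in pEGFR-Lo. Snap25, Slc17a7 and Nefl were among those not above background. Of 15 microglia and macrophage markers, 9 were above background, and Cd68 was called toward pEGFR-Hi and P2ry12 toward pEGFR-Lo. Csf1r, Aif1, Ptprc and Itgam were among those not above background. Of 14 pericyte and meningeal markers, Anpep was called higher in pEGFR-Hi and Rgs5 and Tbx18 in pEGFR-Lo, and of 11 mature oligodendrocyte markers Ermn was called higher in pEGFR-Lo. The markers of choroid plexus and ependyma, red blood cells, and T cells and neutrophils gave 0 calls with limma and SAM, with an unadjusted p under 0.05 for 5. One of these was Ttr, transthyretin of the choroid plexus, at 3.97 to 4.45 in pEGFR-Hi replicates 1, 2 and 3, at 8.45 to 10.18 in pEGFR-Hi replicates 4, 5 and 6 and at 8.08 to 10.89 in pEGFR-Lo (difference -2.78, limma adjusted p = 0.0346). The other 8 measured choroid plexus and ependymal markers differed by -0.26 to 0.28, and Clic6, Kl, Otx2 and Tmem212 were not above background. Without pEGFR-Hi replicates 1, 2 and 3, a setting chosen after seeing the data, 3 and 9 members were called, and the part of such cells in the members' values was not tested.

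All 3 Slc43 genes were called, Slc43a3 and Slc43a1 in pEGFR-Hi and Slc43a2 in pEGFR-Lo. Slc43a3, the purine nucleobase transporter ENBT1, ran from 8.38 to 9.06 in pEGFR-Hi with a median of 8.63, and from 4.56 to 5.08 in pEGFR-Lo with a median of 4.66. All 6 pEGFR-Hi mice therefore lay more than 3 log2 units above every pEGFR-Lo mouse. The mean ± SD of 6 mice was 8.66 ± 0.26 in pEGFR-Hi and 4.76 ± 0.21 in pEGFR-Lo, a difference of 3.90 (95% interval 3.63 to 4.17) or 15-fold, with a limma adjusted p = 3.16e-12. Slc43a1, the leucine and phenylalanine transporter LAT3 whose promoter holds the E-box above, ran from 7.81 to 8.96 with a median of 8.42 in pEGFR-Hi, and from 4.61 to 5.39 with a median of 4.90 in pEGFR-Lo. It was 10.5-fold higher in pEGFR-Hi (8.36 ± 0.43 for pEGFR-Hi, 4.96 ± 0.26 for pEGFR-Lo, mean ± SD of 6 mice; limma adjusted p = 4.47e-10), and the groups did not come near each other. Slc43a2, or LAT4, which carries the same kind of amino acid, went the other way, with pEGFR-Lo from 5.97 to 6.83 and a median of 6.50. In pEGFR-Hi it ran from 3.76 to 5.44 with a median of 5.01, and replicates 4 and 6, at 4.22 and 3.76, were lower than the other 4 pEGFR-Hi mice. The difference of -1.65 (95% interval -2.19 to -1.10) was 3.13-fold in favor of pEGFR-Lo (limma adjusted p = 8.11e-05).

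Slc43a1 and Slc43a3 lie on chromosome 2 with a single measured gene between them in the RefSeq order, Rtn4rl2, a Nogo receptor homolog. The mean of Rtn4rl2 was 6.09 in pEGFR-Hi, 6.29 in pEGFR-Lo, without a call (difference -0.20, limma adjusted p = 0.136). On the outer side of Slc43a1, the mitochondrial chaperone Timm10 was at 8.92 and 9.06 and was not called either, with an adjusted p = 0.401. Farther out, Smtnl1 on 1 side and Prg2 and Prg3 on the other were not called, and Prg2 and Prg3 were not above background. Beyond these, Ube2l6, an enzyme of the interferon-induced ISG15 pathway, and the ATP receptor P2rx3 were called, 2.72-fold and 2.33-fold higher in pEGFR-Hi.

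**Figure D2:**
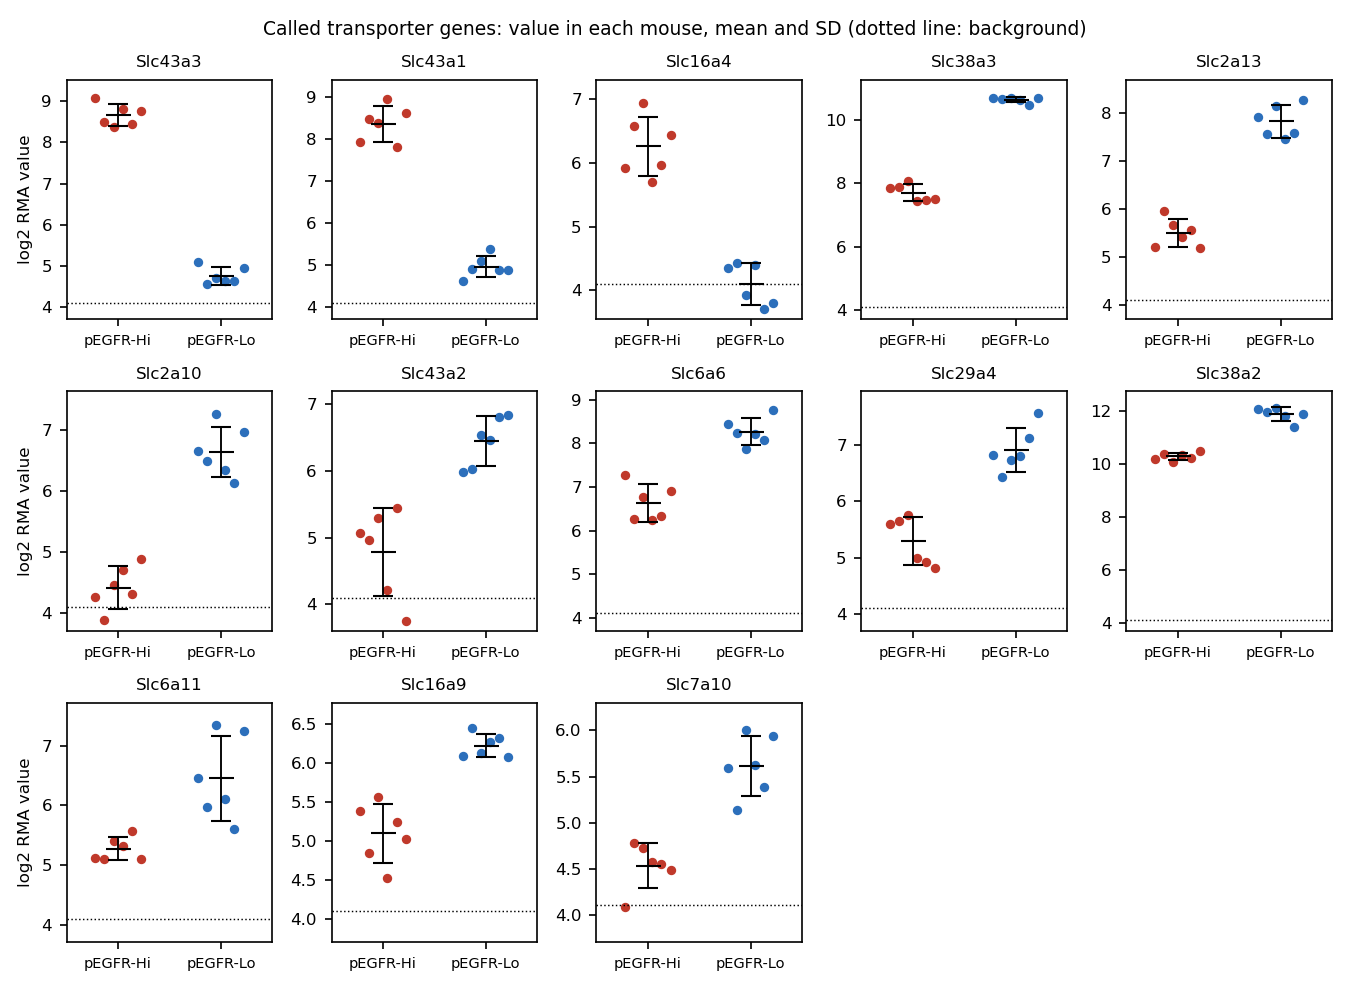
Log2 RMA value (y axis, its range set per gene) in each of 6 pEGFR-Hi (red) and 6 pEGFR-Lo (blue) mice for the 13 called transporter genes. Long ticks are means, bars SD and the dotted line the background of 4.10; the groups do not overlap in any panel, and the pEGFR-Lo mice of Slc16a4 lie around the background.

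Among the amino acid transporters, Slc38a3 and Slc38a2 of the Slc38 family were called, both higher in pEGFR-Lo, and Slc7a10 of the Slc7 family was as well. Slc38a3 (SNAT3), a glutamine carrier of astrocytes, liver and kidney, ran from 10.46 to 10.69 in pEGFR-Lo with a median of 10.67, and from 7.44 to 8.05 in pEGFR-Hi with a median of 7.67. The 6 pEGFR-Lo values lay within 0.23 of each other, far above all of pEGFR-Hi. It was 7.64-fold higher in pEGFR-Lo (10.63 ± 0.089 for pEGFR-Lo, 7.70 ± 0.26 for pEGFR-Hi, mean ± SD of 6 mice; limma adjusted p = 1.09e-11). Slc38a2 (SNAT2), which takes up small neutral amino acids and is a known target of the amino acid response, ran from 11.39 to 12.13 with a median of 11.92 in pEGFR-Lo and from 10.10 to 10.48 with a median of 10.28 in pEGFR-Hi. It was 3.0-fold higher in pEGFR-Lo (difference -1.59, 95% interval -1.83 to -1.34; limma adjusted p = 1.90e-08). Its neighbor on chromosome 15, Slc38a1, which the rule leaves out, was 2.51-fold higher in pEGFR-Lo. Slc38a4 on the other side was not above background, at 3.30 and 3.18, and beyond it Amigo2 was called, 7.01-fold higher in pEGFR-Lo. Scaf11 and Arid2 beyond Slc38a1, and Pced1b beyond Amigo2, were not called. Slc7a10 (Asc-1), a serine, glycine and alanine exchanger, ran from 5.14 to 6.0 with a median of 5.60 in pEGFR-Lo and from 4.09 to 4.78 with a median of 4.56 in pEGFR-Hi. It was 2.11-fold higher in pEGFR-Lo (with limma adjusted p = 2.21e-05), a difference of -1.08 that became -0.99 without pEGFR-Hi replicate 1 and -0.90 without pEGFR-Lo replicates 3 and 6, both under 2-fold.

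The 5 other Slc38 and 9 other Slc7 genes above background, with Slc7a6os counted among the latter, Slc3a2 and both Slc36 genes were not called. Slc38a9, an arginine sensor of the lysosome, had the smallest difference of all members above background, at 6.09 and 6.08 (95% interval of the difference -0.21 to 0.22). Slc7a5 (LAT1), the light chain that imports leucine, ran from 11.07 to 11.88 with a median of 11.59 in pEGFR-Hi and from 11.09 to 11.56 with a median of 11.42 in pEGFR-Lo, so that the groups overlapped through most of their range. Its difference was 0.16 (95% interval -0.14 to 0.47, limma adjusted p = 0.429), in contrast to its functional relatives LAT3 and LAT4 above. Slc3a2 (CD98), the heavy chain that brings Slc7a5 to the membrane, was at 10.80 ± 0.23 in pEGFR-Hi and 10.51 ± 0.13 in pEGFR-Lo (mean ± SD of 6 mice; limma adjusted p = 0.0461). In both genes pEGFR-Hi replicates 2, 4 and 6 had the 3 highest values of the group, from 11.82 to 11.88 in Slc7a5 and from 10.91 to 11.07 in Slc3a2, with the other 3 pEGFR-Hi mice at 11.07 to 11.36 and 10.48 to 10.73. The same 3 mice led in Slc7a1 (CAT1), the carrier of arginine and lysine, at 9.22 to 9.28. They were also the highest pEGFR-Hi mice in Slc7a6, at 8.45 to 8.76, and in the nucleoside carrier Slc29a1, at 9.53 to 9.56. The same held for the called genes Slc43a1 and Slc38a2, and for Slc38a10, Slc6a3 and Slc7a7, which were not called. It is therefore not limited to Slc7a5, its heavy chain and Slc7a1. How often these mice were highest was not counted over all members or all genes. This grouping of mice was chosen after the values were seen. Slc7a1 was 1.5-fold higher in pEGFR-Hi, with overlapping groups (9.08 ± 0.23 for pEGFR-Hi, 8.50 ± 0.28 for pEGFR-Lo, mean ± SD of 6 mice; limma adjusted p = 0.00243). Slc36a1 (PAT1), which carries amino acids with protons out of lysosomes, was 1.83-fold higher in pEGFR-Lo without overlap of the groups (limma adjusted p = 4.37e-04). Its pEGFR-Lo mice ran from 7.17 to 7.52 and its pEGFR-Hi mice from 5.80 to 6.93. Its relative Slc36a4 differed by 0.51 in the other direction (limma adjusted p = 0.00464). The glutamine carrier Slc38a7 of lysosomes differed by -0.55 and Slc38a6 by 0.67, with limma adjusted p of 0.00248 and 0.00210.

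Of the 8 transmitter and osmolyte carriers of the Slc6 family above background, 2 were called, both higher in pEGFR-Lo. Slc6a6 (TauT), the taurine transporter, ran from 7.88 to 8.76 with a median of 8.23 in pEGFR-Lo and from 6.24 to 7.28 with a median of 6.55 in pEGFR-Hi. It was 3.11-fold higher in pEGFR-Lo (8.27 ± 0.30 for pEGFR-Lo, 6.64 ± 0.42 for pEGFR-Hi, mean ± SD of 6 mice; limma adjusted p = 2.44e-06). Slc6a11 (GAT3), a GABA transporter of astrocytes, was 2.27-fold higher in pEGFR-Lo (with limma adjusted p = 0.00125). It ran from 5.60 to 7.35 with a median of 6.28 in pEGFR-Lo and from 5.11 to 5.57 with a median of 5.22 in pEGFR-Hi, so the nearest mice of the groups were almost level. Its highest values, 7.35 and 7.24, were those of pEGFR-Lo replicates 3 and 6, the interferon-low mice. The other 4 pEGFR-Lo mice were at 5.60 to 6.45, and without replicates 3 and 6 the difference of -1.18 was -0.76, under 2-fold. Without pEGFR-Hi replicates 1, 2 and 3 it was -1.12 and was not called either. Replicates 3 and 6 were also the highest pEGFR-Lo mice in Slc7a10, Slc2a13 and Slc2a10, which makes 4 of the 10 members called higher in pEGFR-Lo (40%), where the share over all genes called higher in pEGFR-Lo was 18.2%. That count was chosen after the values were seen and is a description. Slc6a9 (GlyT1), the glycine transporter of glia, did not reach 2-fold, although its groups did not overlap, at 8.88 to 9.25 in pEGFR-Lo and 7.82 to 8.41 in pEGFR-Hi (difference -0.98, 1.97-fold, limma adjusted p = 4.24e-06). With arrays centred on their medians the difference was -1.01 and Slc6a9 was called. Slc6a17, a carrier of neutral amino acids in synaptic vesicles, differed by 0.55 toward pEGFR-Hi (limma adjusted p = 0.00404). The creatine transporter Slc6a8, the dopamine transporter Slc6a3, the proline transporter Slc6a7 and the betaine transporter Slc6a12 had differences from -0.10 to 0.03 and a limma adjusted p of at least 0.432.

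Astrocyte markers also differed between the groups. Of 12 such markers, Slc1a3, Slc1a2, S100b and Gja1 were called higher in pEGFR-Lo and Gfap in pEGFR-Hi, and Aldh1l1 and Gjb6 were not above background. The mean of the 12 was 6.23 to 6.52 in the pEGFR-Hi mice and 7.14 to 7.60 in the pEGFR-Lo mice. Slc1a3, a glutamate transporter of astrocytes and radial glia, had means of 11.02 in pEGFR-Lo and 7.26 in pEGFR-Hi. In sorted bulk cells, fewer cells of a type and less RNA per cell cannot be told apart, and the part of these cells in the values of Slc38a3, Slc6a11, Slc6a9 and the other members was not tested.

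In the Slc2 family of sugar transporters, 2 of 10 members above background, a count that includes Slc2a4rg-ps, were called, both higher in pEGFR-Lo. Slc2a13 (HMIT), which carries myo-inositol with protons, ran from 7.47 to 8.28 with a median of 7.75 in pEGFR-Lo and from 5.19 to 5.95 with a median of 5.49 in pEGFR-Hi. It was 5.0-fold higher in pEGFR-Lo (difference -2.32, 95% interval -2.66 to -1.98; limma adjusted p = 9.91e-09). Near it on chromosome 15, Cpne8, Abcd2 and Cntn1 were also called higher in pEGFR-Lo, with Kif21a, Lrrk2 and Smgc among them not called. Kif21a and Lrrk2 differed by -0.85 and -0.41 (limma adjusted p = 0.00346 and 0.00922), and Smgc was not above background. Slc2a10 (GLUT10) ran from 6.13 to 7.26 with a median of 6.57 in pEGFR-Lo, whereas in pEGFR-Hi it ran from 3.87 to 4.87 with a median of 4.39, close to background. It was 4.67-fold higher in pEGFR-Lo (6.64 ± 0.42 for pEGFR-Lo, 4.41 ± 0.35 for pEGFR-Hi, mean ± SD of 6 mice; limma adjusted p = 1.23e-07).

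Slc2a1 (GLUT1), the main glucose importer of growing cells, was not called, at 8.89 ± 0.60 in pEGFR-Hi and 8.81 ± 0.49 in pEGFR-Lo (mean ± SD of 6 mice; 95% interval of the difference -0.48 to 0.64, limma adjusted p = 0.859). It varied among mice of the same line: from 8.19 to 9.65 in pEGFR-Hi and from 8.23 to 9.46 in pEGFR-Lo. In pEGFR-Hi, replicates 1 and 5 were highest, at 9.65 and 9.58, with the other 4 mice at 8.19 to 8.80. The same 2 mice were highest in Slc2a3 (GLUT3), the neuronal and hypoxia-induced isoform, at 6.88 and 6.77 against 5.10 to 5.51 in the other 4. Slc2a3 was at 5.99 to 6.62 in pEGFR-Lo, and the groups overlapped (difference -0.53, limma adjusted p = 0.194). Slc16a3 (MCT4), the lactate exporter of glycolytic cells, followed, with 6.95 and 5.42 in these mice and 4.80 to 5.27 in the rest of pEGFR-Hi. The glycolytic enzymes Ldha, at 11.30 and 11.02, and Hk2, at 6.78 and 6.76, were highest in the same 2 mice as well. Slc2a3, Slc16a3, Ldha and Hk2 were chosen here after their values were seen.

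**Figure D3:**
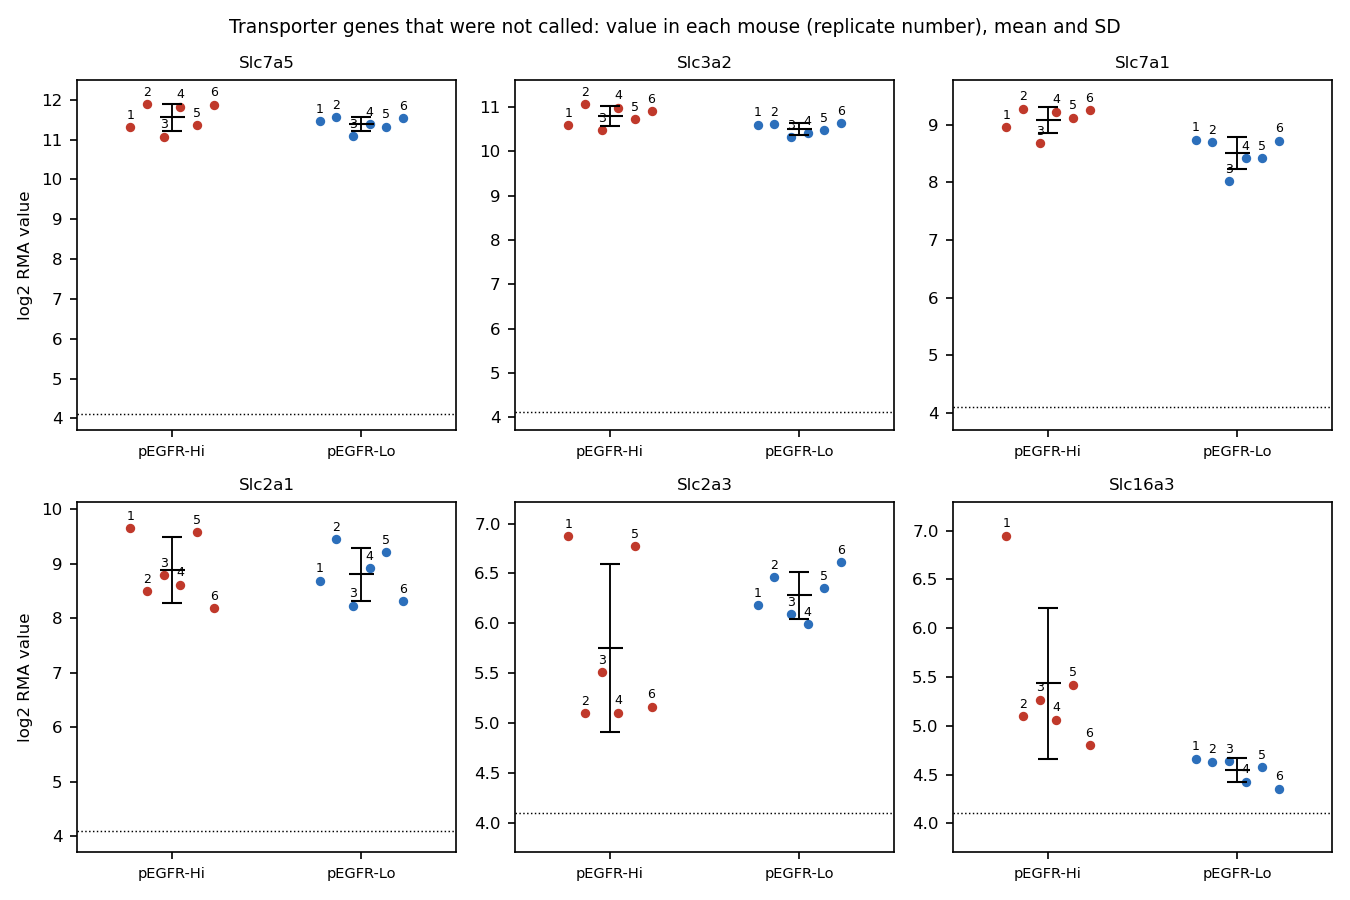
Log2 RMA value (y axis, its range set per gene) of 6 transporter genes that were not called, in each mouse of pEGFR-Hi (red) and pEGFR-Lo (blue), with the replicate number above the point, mean and SD. The dotted line is the background of 4.10. In pEGFR-Hi, replicates 2, 4 and 6 lie high in Slc7a5, Slc3a2 and Slc7a1, and replicates 1 and 5 lie high in Slc2a1, Slc2a3 and Slc16a3. Both groupings of mice were chosen after the values were seen.

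Of 10 Slc16 genes above background, Slc16a4 was called higher in pEGFR-Hi and Slc16a9 in pEGFR-Lo. Slc16a4 (MCT5), whose substrate is not settled, ran from 5.70 to 6.94 with a median of 6.20 in pEGFR-Hi and from 3.71 to 4.43 with a median of 4.14 in pEGFR-Lo, which is the level of background. In pEGFR-Lo 3 of the 6 mice lay below background, and with these counted at background pEGFR-Hi exceeded pEGFR-Lo by at least 4.02-fold (6.26 ± 0.47 for pEGFR-Hi, 4.10 ± 0.33 for pEGFR-Lo, mean ± SD of 6 mice; limma adjusted p = 2.90e-07). Next to Slc16a4 on chromosome 3, Rbm15 was called, 2.11-fold higher in pEGFR-Hi, and Lamtor5 on the other side was not called. Kcnc4, beyond Rbm15, differed by 0.66 toward pEGFR-Hi without a call. Slc16a9 (MCT9), a carrier of carnitine, was 2.18-fold higher in pEGFR-Lo (with limma adjusted p = 1.45e-05), from 6.08 to 6.46 with a median of 6.20 against 4.53 to 5.57 with a median of 5.14. A second probe set of Slc16a9 lay below background, at a mean of 2.55, with a difference of 0.01, and with the mean of both the difference was -0.56. Of the 6 nearest measured genes on chromosome 10, Ank3, Fam13c and Phyhipl were called higher in pEGFR-Lo as well. Mrln, Ccdc6 and 4930533K18Rik were not called, and 4930533K18Rik was not above background. Mrln differed by -0.61 (limma adjusted p = 7.59e-04), and Ccdc6 differed by 0.39 toward pEGFR-Hi (limma adjusted p = 0.00382). Slc16a1 (MCT1), the widespread lactate carrier, was at 6.90 ± 0.32 in pEGFR-Hi and 6.52 ± 0.10 in pEGFR-Lo (mean ± SD of 6 mice) and was not called, with a limma adjusted p = 0.0239. Slc16a3 was not called either: its groups did not overlap, at 4.80 to 6.95 against 4.36 to 4.66, but the spread in pEGFR-Hi was large (difference 0.89, limma adjusted p = 0.0148). Without pEGFR-Hi replicate 1, the mouse at 6.95, the difference was 0.58, and without pEGFR-Hi replicate 6 it was 1.01 and was called. Slc16a10 (TAT1), which carries aromatic amino acids, was higher in pEGFR-Hi by at least 1.58-fold, counted against background (4.64 to 5.03 against 3.78 to 4.24; limma adjusted p = 1.87e-05). The orphan Slc16a14 differed by -0.54 (limma adjusted p = 0.00232).

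Of the nucleoside carriers, Slc29a4 was called and Slc29a1, Slc29a2, Slc29a3 and Slc28a1 were not. Slc29a4 (PMAT), which carries monoamines such as serotonin and dopamine and, at low pH, adenosine, ran from 6.44 to 7.58 with a median of 6.82 in pEGFR-Lo and from 4.81 to 5.76 with a median of 5.30 in pEGFR-Hi. It was 3.08-fold higher in pEGFR-Lo (difference -1.63, 95% interval -2.05 to -1.20; limma adjusted p = 6.87e-06). Slc29a1 (ENT1), the widespread nucleoside carrier, was at 9.39 ± 0.17 in pEGFR-Hi and 9.19 ± 0.13 in pEGFR-Lo (mean ± SD of 6 mice; limma adjusted p = 0.125). Slc29a2 (ENT2), which also carries nucleobases, differed by 0.37 (limma adjusted p = 0.0152), beside the 3.90 of the nucleobase carrier Slc43a3. Slc28a1, the sodium-driven carrier of pyrimidine nucleosides, was near background in both groups, at 4.63 and 4.66.

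**Figure D4:**
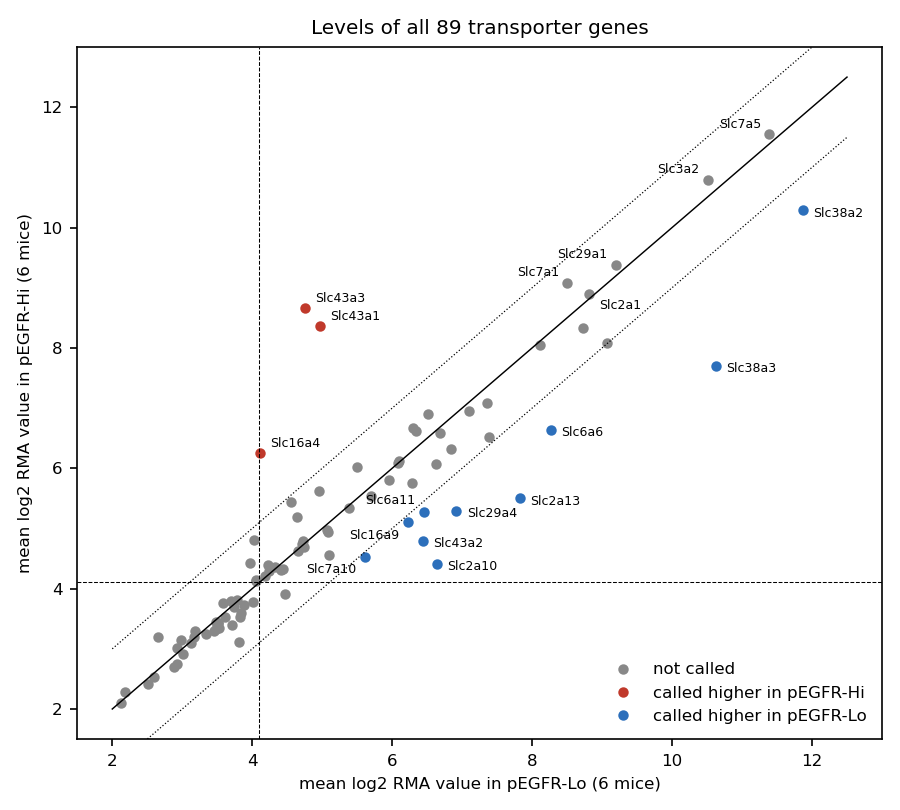
Mean log2 RMA value in pEGFR-Lo (x axis) and pEGFR-Hi (y axis) of all 89 transporter genes, 6 mice per group. The solid line marks equal values, dotted lines 2-fold and dashed lines the background of 4.10; Slc43a3, Slc43a1 and Slc16a4 lie above the band, and Slc38a3, Slc38a2 and 8 others below it.

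Genes that handle the transported substrates were read from 5 lists by their counts and medians. For comparison, over all genes tested 3.99% were called toward pEGFR-Hi and 5.06% toward pEGFR-Lo. Over all genes above background the shares were 5.77% and 7.23%. Of 24 nucleoside salvage genes, 4 were called toward pEGFR-Hi and 3 toward pEGFR-Lo, with a median difference of 0.35. The kinases Tk1 and Dck, which salvage thymidine and deoxycytidine, were 4.29-fold and 2.20-fold higher in pEGFR-Hi. Upp1, the uridine phosphorylase that releases uracil, was 3.97-fold higher, and adenosine deaminase Ada was called too. Cda, which deaminates cytidine, was 10.4-fold higher in pEGFR-Lo, the ecto-nucleotidase Nt5e, which makes adenosine outside the cell, was 5.06-fold higher, and the AMP deaminase Ampd3 was 2.34-fold higher.

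Of 30 amino acid response genes, Gpt2, an alanine transaminase, and the transcription factor Atf3 were called higher in pEGFR-Hi, at 2.45-fold and 2.15-fold, and limma and SAM called 0 toward pEGFR-Lo (unadjusted p under 0.05 for 2). The median of the list was 0.35, and unadjusted p-values were under 0.05 for 19 genes toward pEGFR-Hi. With a limma adjusted p under 0.05 and no fold limit, 15 were called toward pEGFR-Hi and 2 toward pEGFR-Lo. Asns, the asparagine synthetase that is a standard readout of this response, was not called (10.37 ± 0.35 for pEGFR-Hi, 10.16 ± 0.30 for pEGFR-Lo, mean ± SD of 6 mice; limma adjusted p = 0.371), and neither was its regulator Atf4. With the 2-fold limit, the count toward pEGFR-Hi was 1 without pEGFR-Hi replicate 2 or without pEGFR-Lo replicates 3 and 6. It was 4 without pEGFR-Hi replicates 1, 2 and 3. The count toward pEGFR-Lo was 1 without pEGFR-Hi replicate 5. Of 38 genes of amino acid sensing by mTORC1, limma and SAM called 0 toward pEGFR-Hi (unadjusted p under 0.05 for 11) and 3 toward pEGFR-Lo, with a median of -0.02. These were the Rag GTPases Rragd (3.03-fold) and Rragb (2.31-fold) and the sestrin Sesn3 (2.03-fold), an inhibitor of mTORC1 upstream of them.

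Of 16 partners of glucose and lactate transport, Khk, the fructose kinase, was 2.10-fold higher in pEGFR-Hi. Ldhb, the lactate dehydrogenase subunit that favors lactate use, was 4.49-fold higher in pEGFR-Lo (7.61 ± 0.29 for pEGFR-Hi, 9.77 ± 0.23 for pEGFR-Lo, mean ± SD of 6 mice; limma adjusted p = 3.84e-09), and Txnip, which lowers glucose uptake, was 2.99-fold higher in pEGFR-Lo. The median of this list was -0.13, and Ldha was not called. Of 28 transmitter and osmolyte enzymes, 1 was called toward pEGFR-Hi and 4 toward pEGFR-Lo, with a median of -0.15. The serine hydroxymethyltransferase Shmt1 was 3.16-fold higher in pEGFR-Hi. Gatm, which starts creatine synthesis, was higher in pEGFR-Lo by at least 8.72-fold and the creatine kinase Ckmt1 by at least 3.07-fold, both counted against background, while the creatine transporter Slc6a8 above was not called. The GABA transaminase Abat was 2.85-fold higher in pEGFR-Lo (with limma adjusted p = 2.61e-10), in the same direction as the GABA transporter Slc6a11.

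**Figure D5:**
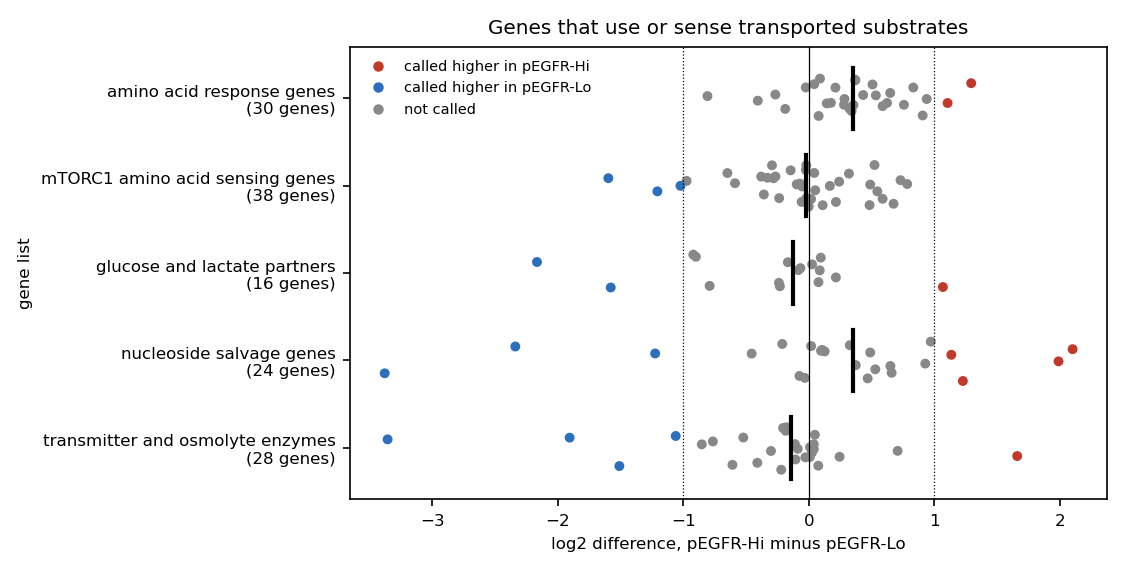
Log2 difference, pEGFR-Hi minus pEGFR-Lo (x axis; 6 mice per group), of each measured gene of 5 lists of genes that use or sense the transported substrates (y axis). Points are genes, spread vertically for legibility, vertical bars are medians and dotted lines mark 2-fold; the median is 0.35 for the amino acid response and nucleoside salvage genes and between -0.15 and -0.02 for the other 3 lists.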

How the data were processed

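RNA of ZsGreen-tagged tumor cells from 12 mouse brains, 6 pEGFR-Hi and 6 pEGFR-Lo by the labels, had been hybridized to Affymetrix Mouse Gene 1.0 ST arrays after Percoll separation from myelin and red blood cells and a DAPI gate against dead cells. The authors deposited log2 values made with RMA in Affymetrix Expression Console, which corrects background, brings all arrays to the same distribution and summarizes probe sets, so that a change in total RNA per cell cannot be seen. Array medians were 4.81 to 4.88, and no arrays were identical. The version and the genome build are not given in the sources used here.

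Of 35556 probe sets, 21789 had 1 gene symbol, 1621 several and 12146 none. Of those with 1, 21698 were matched to RefSeq (GRCm38.p6), which served for names, gene order and promoters. For 999 genes with several probe sets the brightest was used. Values were fitted with limma 3.58.1 in R 4.3.3 over all 19938 genes, and intervals are 95% intervals of that fit. Where the mean or at least 3 of 6 mice of the lower group were not above background, a fold is a lower bound, with mice below background counted at background. The number of arrays limits the precision. Figures were drawn with matplotlib 3.10.9. The code was tested on simulated data.

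Members and lists were chosen with earlier results of these data known. Genes named were the called members, the highest of each family, the 6 highest that were not called and the smallest difference among them; of each list, up to 3 called genes per direction. Other members named, the 9 with an adjusted p under 0.01 but less than 2-fold, those of similar function, genomic neighbors and marker genes, were chosen after their values were seen. Samples that share a replicate number were not treated as pairs, since their deviations from the group means correlated by -0.14 to 0.10.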

Additional observations from a re-analysis of the deposited data

Results flagged for a closer look

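Of 112 groups of 6 mice over the 56 members above background, 4 held a mouse set far apart from the other 5, where chance alone flags about 1 in 20 groups. Slc16a3 was at 6.95 in pEGFR-Hi replicate 1, with the other 5 at 4.80 to 5.42. Slc38a3 was at 10.46 in pEGFR-Lo replicate 5, with the others at 10.61 to 10.69. Slc38a7 was at 5.70 in pEGFR-Hi replicate 4, with the others at 6.06 to 6.23. Slc6a8 was at 7.02 in pEGFR-Lo replicate 6, with the others at 6.58 to 6.70.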

How the results depend on the processing

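The 3 and 10 called members became 13 and 17, and all called genes 3871 and 3314, when the limit was an adjusted p of 0.05 and no fold was asked. Leaving out 1 array at a time gave 3 to 4 and 9 to 11 members, and 774 to 846 and 991 to 1031 of all genes. SAM, another quantile normalization, centring, only genes above background, trend and robust, array weights, the mean of probe sets, and leaving out pEGFR-Lo replicates 3 and 6 or, chosen after seeing the data, pEGFR-Hi replicates 1, 2 and 3 together gave 3 and 9 to 11 members, and 737 to 801 and 975 to 1058 of all genes. Of 713 differences of 31 members over these alternatives, 671 kept their direction and side of the threshold, 5 lost the call, 20 gained it and 17 changed direction. These 17 were of Slc2a1, Slc28a1 and Slc38a9, which were not called. Slc38a9 was -0.062 after quantile normalization, -0.028 after centring and -0.0085 with array weights. Slc2a1 was -0.016 with array weights, -0.18 without pEGFR-Lo replicates 3 and 6 and -0.012 without pEGFR-Hi replicates 1, 2 and 3. With 1 array left out, Slc2a1 ran from -0.071 to 0.22, Slc28a1 from -0.083 to 0.030 and Slc38a9 from -0.042 to 0.064. Lost were Slc16a9 with the mean of its probe sets (-0.56), Slc7a10 without pEGFR-Hi replicate 1 (-0.99) and without pEGFR-Lo replicates 3 and 6 (-0.90), and Slc6a11 without pEGFR-Lo replicates 3 and 6 (-0.76) and without pEGFR-Hi replicates 1, 2 and 3 (-1.12). Besides the wider threshold, Slc6a9 gained a call in 7 alternatives (-1.01 to -1.07) and Slc16a3 without pEGFR-Hi replicate 6 (1.01). With the replicate number as a block, 3 and 10 members and 801 and 1008 of all genes were called, and of 6 pairs 1 correlated best with its own number. Of 230 counts of companion lists, 12 moved by over 1.5 times, 8 of them with no fold limit. Each group was 1 line and the time since injection differed with it, and values near background have only a bound. The cause of these shifts was not tested.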
